A study of Mus musculus with 11 samples.

Results

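RNA was measured in the mouse pancreatic acinar cell line 266-6 after knockdown of Arid1a, and the comparison described here is that of EGF against vehicle in the knocked-down cells. Its members are 6 of the 11 libraries of the study, chosen by their labels: 3 libraries of siArid1a (Arid1a siRNAs and vehicle) and 3 of siArid1a_EGF (Arid1a siRNAs and EGF). Cells were reverse-transfected with Arid1a siRNAs at 25 nM for 48 h, kept overnight in medium without serum, and given EGF at 40 ng/ml or 0.1% BSA, the vehicle, for 8 h. The other 5 libraries received the non-targeting siRNA NT5 in place of Arid1a siRNAs, 2 with vehicle (siCtrl) and 3 with EGF (siCtrl_EGF). They serve to test where the response differed. They also enter the common fit, and so the filter on low counts and the spread behind every p-value. The siRNAs acted transiently, so Arid1a was lowered and not deleted, and the time point of 8 h is the only one. The labels name triplicates but not separate cultures. A p-value here sets a difference against the scatter between libraries within groups, and that scatter may be technical.

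EGF binds its receptor EGFR, a tyrosine kinase, which activates RAS and the kinases RAF, MEK and ERK. ERK signalling first induces immediate early transcription factors (FOS, EGR1, MYC) and then a later set that includes its own brakes, the Sprouty proteins and the dual-specificity phosphatases. In pancreatic acinar cells, which make digestive enzymes, EGF receptor signalling is known for driving acinar-to-ductal metaplasia, a change of cell identity that can precede pancreatic cancer. ARID1A is a DNA-binding subunit of the BAF (SWI/SNF) chromatin remodelling complex, which keeps enhancers accessible.

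The acinar label was checked against markers. Of 17 acinar markers, 16 passed the filter on low counts and Amy2a5 had no reads. The summed level of the acinar markers was 17700 to 21100 CPM (each gene's reads scaled to the size of its library) in the vehicle libraries and 16700 to 18400 with EGF, against 56.2 to 61.4 and 79.7 to 87.6 for 8 ductal markers. Ctrb1 alone made up 11700 to 13900 and 11300 to 12800 CPM of the acinar sum. The sum for 8 islet markers was 826 to 977 and 989 to 1040, with no reads for 3 of them (Ins1, Ins2 and Sst). Nearly all of it came from Chga (626 to 768 and 794 to 840) and Pdx1 (198 to 210 and 194 to 210). The sum for 9 fibroblast markers was 302 to 337 and 321 to 327, nearly all of it from Pdgfrb alone (288 to 321 and 306 to 315), with Lum at 0. The sum was for 7 immune markers 6 to 7.18 and 8.28 to 9.3 with Cd3e at 0, and for 5 endothelial markers 42.9 to 51.2 and 48.2 to 55.5 with Cdh5 at 0. Nearly all of the immune sum was Cd68 (5.83 to 6.99 and 8.11 to 9.23), and most of the endothelial sum was Tek (40.4 to 49 and 46.2 to 52.3). In bulk RNA, fewer cells of a type and less RNA per cell cannot be told apart. The libraries held 10279763, 15710575 and 11199245 counted reads with vehicle and 14143225, 13614553 and 11947581 with EGF. The main axis of variation within groups held 31% of that variation. On it siArid1a_EGF replicate 2 (0.424) lay apart from replicates 1 and 3 (-0.224 and -0.2), while the siArid1a libraries were spread out at -0.059, -0.3 and 0.359, with replicate 3 highest. Across genes the loading on that axis went with transcript length (Spearman's rho -0.592 over 12089 genes, which are not independent replicates). The EGF change did not go with length in the same way (rho 0.0115).

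Arid1a itself stood at 151, 157 and 127 CPM with vehicle and at 145, 122 and 152 CPM with EGF, so the groups overlapped (log2 change -0.05 ± 0.13 SE, adjusted p = 0.804 by edgeR's quasi-likelihood test). Against control siRNA its log2 difference was -1.25 with vehicle and -1.06 with EGF. The EGF comparison was therefore made at overlapping levels of the targeted transcript.

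EGF changed 3119 of the 13343 genes tested in knocked-down cells (23.4%), at a Benjamini-Hochberg adjusted p under 0.05 by edgeR's quasi-likelihood test. Of these, 1734 were higher (13% of those tested) and 1385 were lower (10.4%). This balance depended on the scaling, since upper-quartile factors gave 1509 higher and 1683 lower genes. Most changes were small: the median fold among the genes that passed was 1.31, and 287 (2.15%) changed at least 2-fold, 184 upward (1.38%) and 103 downward (0.772%). At 4-fold or more the response was mostly upward, with 42 higher (0.315%) and 6 lower genes (0.045%). The median log2 change of all genes tested was -0.0085. All 3 EGF libraries lay above all 3 vehicle libraries for 19.7% of the genes tested and below them for 19%. Without siArid1a_EGF replicate 1 the number of lower genes was 911. A fit of only the 6 libraries with Arid1a siRNAs gave 2981 changed genes.

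**Figure D1:**
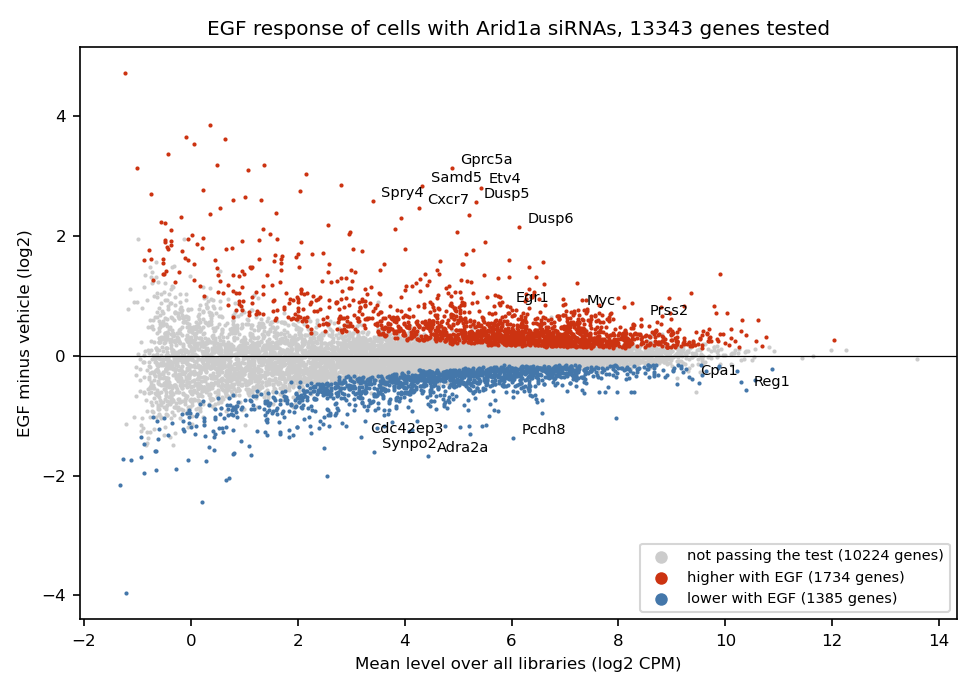
Each point is a gene: the x axis gives its mean level over all libraries in log2 CPM, the y axis the log2 change with EGF in cells with Arid1a siRNAs, red and blue mark genes higher or lower at an adjusted p under 0.05. The 1734 higher genes reach further from 0 than the 1385 lower ones, and the genes named on the upper side (Gprc5a, Etv4, Dusp5, Dusp6, Spry4) include ERK feedback regulators.

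Among genes with a mean level of at least 3 on the log2 CPM scale and no overlap between groups, the largest rise was that of Gprc5a, an orphan G protein-coupled receptor of epithelial cells. Gprc5a stood at 5.60, 6.14 and 6.70 CPM with vehicle and at 55.1, 50.3 and 58.0 CPM with EGF, 8.84-fold higher (log2 change 3.14 ± 0.095 SE, adjusted p = 6.7e-11). Every EGF library lay far above every vehicle library. Samd5 followed at 2.89, 4.18 and 2.87 CPM against 29.6, 15.9 and 27.9 CPM, 7.17-fold, with siArid1a_EGF replicate 2 well below the other EGF libraries. The chemokine-scavenging receptor gene Cxcr7 rose 5.53-fold and the alkaline ceramidase gene Acer2 4.33-fold. The potassium channel subunit gene Kcnj8 rose 3.74-fold, from 15.7, 17.1 and 19.3 CPM to 61.5, 67.0 and 66.3 CPM. Emp1, which encodes an epithelial membrane protein, rose 4.19-fold, from 12.7, 11.98 and 10.3 CPM to 52.3, 46.4 and 48.2 CPM.

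The largest falls were smaller than the largest rises. Adra2a, the alpha-2A adrenergic receptor gene, stood at 26.1, 31.1 and 31.5 CPM with vehicle and at 8.66, 9.72 and 9.62 CPM with EGF, 3.18-fold lower (log2 change -1.67 ± 0.11 SE, adjusted p = 1.36e-07). Synpo2, which encodes an actin-binding protein, fell 3.05-fold from 17.6, 19.3 and 18.3 CPM to 6.55, 5.63 and 5.94 CPM. The protocadherin gene Pcdh8 fell 2.6-fold from 91.7, 104 and 95.4 CPM to 37.5, 38.5 and 36.1 CPM. Grhl3, a transcription factor gene of epithelial barriers, fell 2.48-fold, and Fgfr2, a receptor for fibroblast growth factors, fell 2.27-fold from 21.1, 21.8 and 20.3 CPM to 8.95, 8.92 and 9.95 CPM. The other 7 of the 12 largest falls, Cdc42ep3, Fam13a, Gpr37, Cyp4v3, Spon2, Olfml2b and Fam151a, fell 2.26-fold to 2.55-fold. The rule required that the groups not overlap, so the separation seen in these 24 genes is a consequence of how they were chosen.

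**Figure D2:**
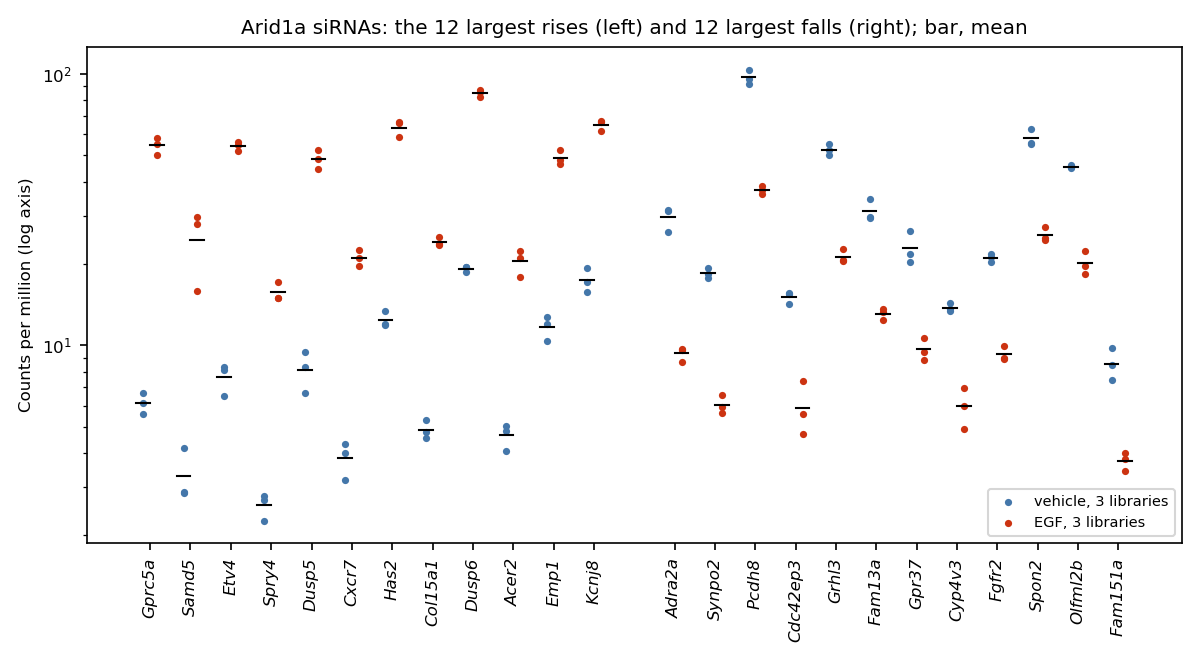
CPM on a log axis of the 12 largest rises (left) and the 12 largest falls (right) in each vehicle library (blue) and EGF library (red) with Arid1a siRNAs, with a bar at the mean of 3. Gprc5a moves from about 6 to about 55 CPM, and siArid1a_EGF replicate 2 is the low red point of Samd5 at 15.9 CPM.

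Most of the tested genes of ERK feedback were higher with EGF. Of 27 tested members of the list of ERK feedback and ETS genes, 16 were higher, none was lower and 11 did not pass, a share called of 59.3% against 23.4% of all genes, with a median log2 change of 0.68 against -0.0085 for all genes tested. Dusp6, the phosphatase that inactivates ERK in the cytoplasm, stood at 18.6, 19.4 and 19.4 CPM with vehicle and at 86.9, 82.2 and 85.4 CPM with EGF (log2 change 2.15 ± 0.077 SE, adjusted p = 2.31e-10). The groups were more than 60 CPM apart. Dusp5, its nuclear counterpart, rose 5.96-fold from 9.42, 8.29 and 6.70 CPM to 48.7, 44.6 and 52.4 CPM. Etv4, an ETS transcription factor induced by ERK, rose 7.02-fold from 6.53, 8.29 and 8.09 CPM to 54.8, 51.8 and 56.0 CPM. The Sprouty genes, which encode inhibitors of receptor tyrosine kinase signalling, rose as well: Spry4 6.01-fold, Spry1 3.39-fold and Spry2 2.96-fold. Spry2 was the most uniform of them, at 39.3, 38.6 and 41.1 CPM with vehicle and 117, 118 and 117 CPM with EGF.

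The RefSeq promoter table of build GRCm38.p6 gives windows from 250 bases before to 50 after an annotated start, and it held windows for 9484 of the 13343 genes tested. The exact letters of an AP-1 site (TGANTCA with N as C or G), the site of FOS and JUN dimers, stood in 3.65% of the 12133 windows of these genes. In the 169 windows of the 124 matched genes that rose at least 2-fold, 12 windows (7.1%) held an AP-1 site. More than 1 of these windows belonged to Egflam, and Il1rn, Prok2, Scel and Vtcn1 among their genes are scarce. A CArG box, the site of the serum response factor, stood in 1.32% of all windows and in 7 (4.14%) of those 169. These 7 windows belong to 3 genes, 4 of them to Egr2, which is scarce, 2 to Ptprr and 1 to Dusp5. The ETS site searched (CCGGAAGT) stood in 7.5% of all windows and in 1 of the 169 (0.592%). A cyclic AMP response element (TGACGTCA) stood in 2.99% of all windows and in 5 of the 169 (2.96%), and an E2F site (TTTCCCGC) in 1.91% and in none. In the 95 windows of 70 matched genes that fell at least 2-fold, 4 (4.21%) held an AP-1 site, 1 (1.05%) a CArG box, 3 (3.16%) a cyclic AMP response element and none an ETS site. Both strands were searched, neighbouring windows of a gene can overlap, and a match is a description of letters only. Over all 1734 higher genes the shares lay nearer to those of all windows, at 4.63% for AP-1, 1.48% for CArG and 7.96% for ETS in 1620 windows. Over all 1385 lower genes they were 3.45%, 1.46% and 3.3% in 1305 windows. No test was made of these shares.

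Windows of 3 risers are shown because their sites stand out in the sequence, which reads 5′ to 3′ along the gene, with the sites in capitals. That of Dusp5 (chr19:53528895-53529194, plus strand) holds 2 CArG boxes side by side, starting 82 and 72 bases before the start. That of Emp1 (chr6:135362681-135362980, plus strand) holds an AP-1 site 145 bases before the start, while another Emp1 window (chr6:135367243-135367542) holds none. That of Plaur (chr7:24462233-24462532, plus strand), the urokinase receptor gene, holds an AP-1 site 69 bases before the start. The reads were aligned by the authors to another build, mm9.
Dusp5: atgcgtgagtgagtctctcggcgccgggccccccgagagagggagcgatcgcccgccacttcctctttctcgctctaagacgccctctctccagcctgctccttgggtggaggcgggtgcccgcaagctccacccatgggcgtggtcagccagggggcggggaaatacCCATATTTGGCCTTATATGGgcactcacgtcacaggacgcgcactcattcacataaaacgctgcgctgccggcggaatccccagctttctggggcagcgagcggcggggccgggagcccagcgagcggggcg
Emp1: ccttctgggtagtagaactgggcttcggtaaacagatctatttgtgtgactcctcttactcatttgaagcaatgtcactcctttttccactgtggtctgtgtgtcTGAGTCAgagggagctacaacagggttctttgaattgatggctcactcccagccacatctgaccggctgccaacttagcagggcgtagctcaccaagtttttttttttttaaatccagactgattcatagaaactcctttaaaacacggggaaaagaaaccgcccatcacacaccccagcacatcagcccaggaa
Plaur: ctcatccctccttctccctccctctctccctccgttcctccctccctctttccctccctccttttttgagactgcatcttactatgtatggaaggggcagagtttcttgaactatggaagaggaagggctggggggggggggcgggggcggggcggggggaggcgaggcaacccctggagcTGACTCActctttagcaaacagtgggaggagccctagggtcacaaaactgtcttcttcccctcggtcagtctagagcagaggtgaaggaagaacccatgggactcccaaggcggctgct

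Several immediate early genes were above vehicle at 8 h. Of 33 tested members, 18 were higher, 1 was lower (Btg1, an anti-proliferative gene) and 14 did not pass, a share called of 57.6% against 23.4% of all genes, with a median log2 change of 0.41. Myc, the growth-promoting transcription factor, stood at 90.0, 94.9 and 96.0 CPM with vehicle and at 158, 162 and 161 CPM with EGF (log2 change 0.77 ± 0.052 SE, adjusted p = 1.4e-07). Egr1 stood at 33.7, 35.2 and 37.2 CPM against 64.7, 59.1 and 65.8 CPM, 1.79-fold, and Fos at 4.66, 5.10 and 6.26 CPM against 10.4, 10.5 and 10.1 CPM, 1.94-fold. The groups did not overlap for any of these 3 genes. The small Maf proteins, partners of AP-1 type factors, rose too, Maff 2.59-fold and Mafk 1.86-fold.

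Among receptors, ligands and inhibitors of the EGF family, 5 of 18 tested genes were higher and 1 was lower. That is 33.3% called, against 23.4% of all genes. Egfr stood at 55.3, 58.3 and 42.6 CPM with vehicle and at 88.3, 69.1 and 88.3 CPM with EGF, 1.57-fold higher (log2 change 0.65 ± 0.16 SE, adjusted p = 0.0134). The groups did not overlap, but the lowest library of each, siArid1a replicate 3 and siArid1a_EGF replicate 2, was the one highest on the axis of variation within groups, and without siArid1a_EGF replicate 3 the adjusted p was 0.0568. Errfi1, which encodes an intracellular inhibitor of EGFR, rose 2.09-fold from 49.2, 56.4 and 51.4 CPM to 112, 105 and 112 CPM. Hbegf, the gene of an EGFR ligand, rose 1.74-fold from 19.6, 17.2 and 19.6 CPM to 33.2, 32.0 and 32.6 CPM. Lrig3 and Lrig1, of a family that includes receptor inhibitors, rose by 0.35 and 0.23 on the log2 scale. Erbb3, a partner receptor for neuregulin signals, fell by 0.72 on the log2 scale. Erbb4 and the ligand gene Ereg had no reads in any library.

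The chain from RAS to ERK moved little. Of 27 tested members, 2 were higher, 2 were lower and 23 did not pass, a share of 14.8% against 23.4% of all genes. The exceptions were Rps6ka2, a kinase activated by ERK, which rose 2.17-fold from 34.4, 37.2 and 28.8 CPM to 77.7, 63.5 and 78.4 CPM, and Rasa2, a RAS GTPase-activating protein gene, at a log2 change of 0.52. The exchange factor gene Sos2 fell 1.28-fold and the docking protein gene Gab1 1.53-fold.

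Digestive enzyme genes that changed were mostly lower, with an exception. Of 29 tested genes of acinar enzymes and secretory products, 11 were lower, 1 was higher and 17 did not pass. That is 41.4% called, against 23.4% of all genes, with a median log2 change of -0.39. Reg1, a secreted protein of acinar cells, stood at 1749, 1823 and 2227 CPM with vehicle and at 1268, 1315 and 1307 CPM with EGF, 1.49-fold lower (adjusted p = 6.33e-05). Cpa1, carboxypeptidase A1, fell 1.31-fold from 639, 691 and 801 CPM to 533, 557 and 540 CPM. The vehicle library with the highest values of both was siArid1a replicate 3. Prss2, a trypsinogen gene, went the other way, from 284, 268 and 328 CPM to 427, 468 and 447 CPM, 1.53-fold higher with no overlap. Trypsinogen genes are near-identical copies that read counting can split, so the Prss2 value is uncertain in that respect. The number of lower members was 7 without siArid1a replicate 3, 6 without siArid1a_EGF replicate 1 and 7 without siArid1a_EGF replicate 3.

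Of the listed acinar transcription factors that changed, more were higher than lower, but Ptf1a and Nr5a2 did not pass. Of 15 tested, 6 were higher and 1 was lower (46.7% called, against 23.4% of all genes), with a median log2 change of 0.22. Ptf1a, the master regulator of acinar identity, stood at 141, 144 and 160 CPM with vehicle and 148, 154 and 139 CPM with EGF, overlapping (adjusted p = 0.926). Nr5a2, a nuclear receptor that supports it, stood at 125, 133 and 108 CPM against 150, 131 and 153 CPM, also overlapping (adjusted p = 0.0955). Bhlha15, also called Mist1, a regulator of secretory cell maturation, rose 1.48-fold from 16.7, 18.9 and 19.1 CPM to 30.3, 23.5 and 27.4 CPM. Its adjusted p was 0.0099, and 0.0535 without siArid1a replicate 1 or 0.0517 without siArid1a_EGF replicate 1. Xbp1, a regulator of secretory genes, rose 1.25-fold, and Tead2 fell 1.22-fold.

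Ductal and metaplasia markers rose in part. Of 28 tested, 10 were higher, 1 was lower and 17 did not pass, with a median log2 change of 0.17. That is 39.3% called, against 23.4% of all genes. The number higher was 6 without siArid1a replicate 1 and 5 without siArid1a_EGF replicate 1. Spp1, the osteopontin gene, stood at 2.89, 4.30 and 3.65 CPM with vehicle and 14.5, 14.3 and 16.6 CPM with EGF, 4.08-fold higher. Onecut3, a transcription factor gene, rose 3.45-fold from 5.78, 4.79 and 5.66 CPM to 19.4, 17.4 and 18.7 CPM. Sox9, which marks ductal and progenitor cells, was 1.31-fold higher, at 38.6, 41.5 and 44.0 CPM against 52.5, 54.3 and 56.1 CPM. The Sox9 groups did not overlap, yet its adjusted p of 0.0337 was between 0.0656 and 0.13 when siArid1a replicate 1 or 2, or any library of siArid1a_EGF, was left out. Krt19, a keratin of duct cells, stood near 1 to 2 CPM in all 6 libraries and overlapped (log2 change -0.00 ± 0.26 SE). Elf3, the lower member, encodes an epithelial ETS factor and fell 1.62-fold.

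**Figure D3:**
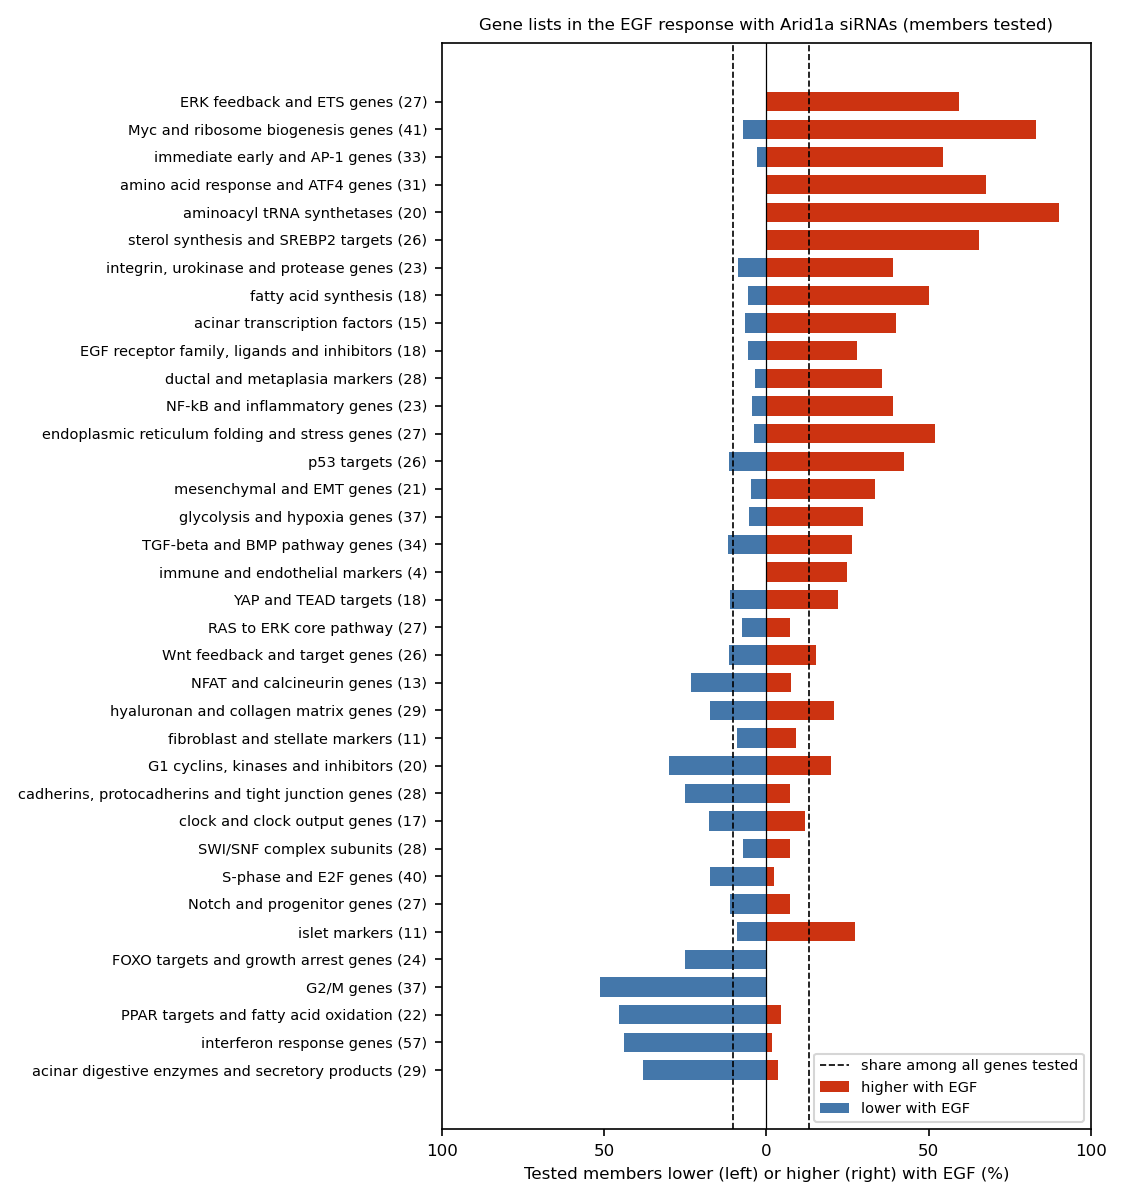
Share of the tested members of each of 36 gene lists that were higher (right, red) or lower (left, blue) with EGF at an adjusted p under 0.05, ordered by the list's median log2 change, with the number of members tested in brackets and dashed lines at the share among all genes tested (13% and 10.4%). The tRNA synthetases and the ribosome biogenesis genes lie far to the right, and the acinar enzymes, interferon response genes and G2/M genes to the left.

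Genes that build ribosomes moved together. Of 41 tested Myc and ribosome biogenesis genes, 34 were higher, 3 were lower and 4 did not pass, with a median log2 change of 0.52 and a highest value of 0.88. In all, 90.2% were called, against 23.4% of all genes. Dkc1, which encodes the pseudouridine synthase dyskerin, stood at 101, 102 and 99.3 CPM with vehicle and 171, 167 and 177 CPM with EGF, 1.7-fold higher. Ddx21, a nucleolar RNA helicase gene, rose 1.58-fold from 297, 300 and 282 CPM to 468, 457 and 468 CPM. The 3 lower members were Mxd1 and Mxd4, which encode antagonists of Myc, and the Myc paralog Mycl1. The rises of Dkc1 and Ddx21 were modest in size, but their groups lay far apart relative to their spread. Both genes were named for their small p, a rule that favours such separation.

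Transcripts for amino acid supply and tRNA loading that changed were all higher. Of 31 tested amino acid response and ATF4 genes, 21 were higher, none was lower and 10 did not pass (median log2 change 0.38), and of 20 aminoacyl tRNA synthetase genes 18 were higher, none was lower and 2 did not pass (median 0.33). Called shares were 67.7% and 90%, against 23.4% of all genes. Slc7a5, a large neutral amino acid transporter gene, stood at 151, 149 and 153 CPM against 248, 228 and 253 CPM, 1.61-fold. Mthfd2, of mitochondrial folate metabolism, rose 1.58-fold and Psat1, of serine synthesis, 1.52-fold. The isoleucyl synthetase gene Iars rose 1.48-fold from 144, 148 and 133 CPM to 219, 192 and 219 CPM, and Nars and Vars rose 1.34-fold and 1.36-fold. Of 27 endoplasmic reticulum folding and stress genes, 14 were higher and 1 was lower, Sel1l, a share called of 55.6%. Hyou1 and Sec61a1 rose 1.33-fold and 1.29-fold. The number higher in that list was 9 without siArid1a replicate 2, 9 without siArid1a_EGF replicate 1 and 8 without siArid1a_EGF replicate 3.

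Lipid synthesis genes that changed were mostly higher. Of 26 tested sterol synthesis and SREBP2 target genes, 17 were higher and none was lower (median log2 change 0.31), and of 18 fatty acid synthesis genes 9 were higher and 1, Acacb, was lower (median 0.24). Called shares were 65.4% and 55.6%, against 23.4% of all genes. Cyp51, of cholesterol synthesis, and Insig1, of its feedback control, rose 1.33-fold and 1.29-fold, and the fatty acid elongase gene Elovl6 rose 1.65-fold. Of 22 PPAR target and fatty acid oxidation genes, 10 were lower, 1 was higher, Ppargc1b, and 11 did not pass (median -0.29, share called 50%). Cpt2, a carnitine palmitoyltransferase gene, fell 1.38-fold from 73.6, 71.4 and 80.5 CPM to 54.0, 55.3 and 54.3 CPM. Angptl4, an inhibitor of lipoprotein lipase, fell 2.16-fold from 33.3, 27.8 and 26.1 CPM to 12.6, 15.2 and 12.4 CPM. The number of fatty acid synthesis genes that were higher was 5 without siArid1a replicate 1 and 5 without siArid1a_EGF replicate 3.

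Cell cycle genes that changed were mostly lower. Of 37 tested G2/M genes, none was higher, 19 were lower and 18 did not pass, and all 37 log2 changes lay below 0 (median -0.20, from -0.58 to -0.02). That is 51.4% called, against 23.4% of all genes. Nusap1, a spindle protein gene, stood at 104, 109 and 104 CPM with vehicle and 68.1, 73.8 and 69.9 CPM with EGF, 1.5-fold lower, and the mitotic genes Dlgap5 and Prc1 fell 1.22-fold and 1.21-fold. The number of lower G2/M genes was 12 without siArid1a replicate 2. Of 40 S-phase and E2F genes, 7 were lower, 1 was higher (Ccne1, the cyclin E1 gene, 1.32-fold) and 32 did not pass. Their share called of 20%, in both directions together, was below the 23.4% of all genes. By direction, 13% of all genes were higher and 10.4% were lower. E2f2 fell 1.34-fold and Rrm1, a ribonucleotide reductase subunit gene, 1.19-fold, and the number lower was 4 without siArid1a replicate 3, 2 without siArid1a_EGF replicate 1 and 4 without siArid1a_EGF replicate 2.

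Regulators of the G1 phase moved both ways. Of 20 tested, 4 were higher and 6 were lower, a share called of 50% against 23.4% of all genes. The higher ones were Cdkn2b (2.23-fold), Cdkn1a (1.71-fold) and Cdkn2a, which encode inhibitors of cyclin-dependent kinases, and Ccne1. Cdkn1a, the p21 gene, stood at 15.5, 16.8 and 19.4 CPM with vehicle and 30.9, 29.0 and 28.6 CPM with EGF. Ccng2, a cyclin gene linked to growth arrest, fell 1.63-fold from 52.2, 49.6 and 50.2 CPM to 30.6, 32.1 and 30.4 CPM. Of 24 FOXO target and growth arrest genes, none was higher and 6 were lower (median log2 change -0.13), a share called of 25%. That is near the 23.4% of all genes called in both directions together. By direction, 13% of all genes were higher and 10.4% were lower. Among the lower FOXO target and growth arrest genes were Fbxo32, a muscle atrophy ubiquitin ligase gene, at 1.54-fold and Bcl2l11, the gene of the pro-death protein BIM, at 1.36-fold. Of 26 p53 targets, 11 were higher and 3 were lower, a share called of 53.8%. Among these, Plk3 rose 1.96-fold and Aen 1.64-fold, and the number higher was 6 without siArid1a replicate 1 and 7 without siArid1a_EGF replicate 2.

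Interferon response genes that changed were lower, apart from 1. Of 57 tested, 25 were lower, 1 was higher (Isg20, an RNA exonuclease gene, 1.59-fold) and 31 did not pass, a share called of 45.6% against 23.4% of all genes, with a median log2 change of -0.32. Irf7, the transcription factor that amplifies the interferon response, stood at 40.0, 43.3 and 48.5 CPM with vehicle and 28.0, 23.3 and 27.3 CPM with EGF, 1.68-fold lower. Parp9 fell 1.37-fold from 96.0, 101 and 99.5 CPM to 75.5, 72.1 and 69.1 CPM. Of 23 NF-kB and inflammatory genes, 9 were higher and 1, Csf1, was lower, a share called of 43.5%. Il1rn, the interleukin 1 receptor antagonist gene, was scarce, at 0.466, 0.184 and 0.435 CPM with vehicle and 2.75, 2.78 and 3.51 CPM with EGF, and Lif, a cytokine gene, rose 2.06-fold. The number of higher genes in the inflammatory list was 5 when siArid1a replicate 3 and siArid1a_EGF replicate 2 were both left out.

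Genes of the cell surface and matrix changed unevenly. Of 29 hyaluronan and collagen matrix genes, 6 were higher and 5 were lower, a share called of 37.9% against 23.4% of all genes. Has2, which makes hyaluronan, stood at 13.3, 11.98 and 11.9 CPM with vehicle and 65.6, 58.3 and 66.2 CPM with EGF, 5.12-fold higher, and Col15a1, a basement membrane collagen gene, rose 4.94-fold. The lower members were Plod1, Nid2, P4ha3, Col3a1 and Lamb3. Of 23 integrin, urokinase and protease genes, 9 were higher and 2, Adamts1 and Serpine2, were lower, a share called of 47.8%. The number higher was 5 without siArid1a replicate 3. Plaur, the urokinase receptor gene whose promoter is shown above, stood at 1.40, 1.29 and 0.783 CPM with vehicle and 8.31, 8.55 and 8.70 CPM with EGF, 7.25-fold higher. Timp3, a metalloproteinase inhibitor gene, rose 2.08-fold from 435, 416 and 373 CPM to 879, 806 and 856 CPM.

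Adhesion genes that changed were mostly lower and mesenchymal genes that changed were mostly higher. Of 28 cadherin, protocadherin and tight junction genes, 2 were higher (Cdh2 and Cldn1) and 7 were lower, and Pcdh15 fell 2.23-fold and Pcdh10 1.87-fold beside Pcdh8. The number lower was 4 without siArid1a replicate 1 and 4 without siArid1a_EGF replicate 3. Of 21 mesenchymal genes, 7 were higher, 13 did not pass and 1, Cdh1, the E-cadherin gene of epithelial cells, was lower by 0.17 on the log2 scale. The shares called were 32.1% and 38.1%, against 23.4% of all genes. S100a4 was scarce, at 0.186, 0.553 and 0.348 CPM with vehicle and 2.40, 2.85 and 2.93 CPM with EGF, and Tgfbi, a TGF-beta induced matrix gene, rose 2.63-fold. Tgfb1, the ligand gene, rose 1.97-fold from 23.0, 25.7 and 28.3 CPM to 51.5, 51.2 and 48.7 CPM.

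Several lists had shares of called members between 14.3% and 30.8%, against 23.4% of all genes. Of 27 Notch and progenitor genes, 2 were higher (Lfng and Jag2) and 3 were lower (Hey1, Dll1 and Hey2), a share of 18.5%. Of 26 Wnt feedback and target genes, 4 were higher (Wisp1, Lgr5, Fzd8 and Lrp5) and 3 were lower (Fzd7, Fzd1 and Tcf7l2), and of 28 SWI/SNF subunit genes 2 were higher (Smarca2 and Actb) and 2 were lower (Smarcc2 and Smarcd3). The share was 26.9% for the Wnt list and 14.3% for the SWI/SNF list. Of 13 NFAT and calcineurin genes, Nfatc1 rose 1.33-fold from 30.2, 35.8 and 33.1 CPM to 44.5, 42.3 and 45.3 CPM, and Rcan3, Nfatc2 and Rcan2 fell. Of 17 clock genes, 2 were higher (Bhlhe40 and Cry1) and 3 were lower (Tef, Per3 and Nr1d2).

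The shares called were 38.2% for the TGF-beta list, 35.1% for the glycolysis list and 33.3% for the YAP list, against 23.4% of all genes. Of 34 TGF-beta and BMP pathway genes, 9 were higher, among them the receptor gene Tgfbr1 (1.6-fold) and Tgif1 (1.82-fold), and 4 were lower (Acvr1b, Id4, Nbl1 and Bmp2). Of 37 glycolysis and hypoxia genes, 11 were higher and 2 were lower (P4ha2 and Ndrg1). Hk2, the hexokinase 2 gene, stood at 14.4, 13.4 and 12.3 CPM with vehicle and 29.3, 29.0 and 32.2 CPM with EGF, 2.26-fold higher. Car9, a carbonic anhydrase gene, rose 1.86-fold and the lactate transporter gene Slc16a1 1.51-fold. Of 18 YAP and TEAD targets, 4 were higher (Cyr61, Dlc1, Wwc1 and Axl), 2 were lower (Tead2 and Fstl1) and 12 did not pass, with a median log2 change of 0.08 that was below 0 without siArid1a_EGF replicate 3. Among markers of other cell types, 3 of 11 islet genes were higher (among them Ppy and Chga) and 1 was lower (Mafa), 1 of 11 fibroblast genes was higher (Postn) and 1 lower (Col3a1), and 1 of 4 immune and endothelial genes was higher (Cd68). Called shares were 36.4% for the islet list, 18.2% for the fibroblast list and 25% for the immune and endothelial list. The part of such cells in any result was not tested.

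The response in knocked-down cells was then set beside that with control siRNA, which rests on other libraries but shares the estimate of spread. Of the 1734 genes that rose with Arid1a siRNAs, 1480 (85.4%) also rose with control siRNA, where they were 66.2% of the 2237 that rose (16.8% of those tested), and 5 fell. Of the 1385 that fell, 1182 (85.3%) also fell with control siRNA, 47.1% of the 2507 that fell there (18.8% of those tested), and 3 rose. Of the 184 that rose at least 2-fold, 164 (89.1%) passed in the same direction with control siRNA, and of the 103 that fell at least 2-fold, 79 (76.7%). Another 249 rising and 200 falling genes did not pass with control siRNA, 228 and 191 of them with the same sign, and the interaction passed for 1 of the 249 and none of the 200. Genes that passed only with Arid1a siRNAs were thus, apart from that 1 gene, not shown to respond differently.

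The difference between the EGF responses, tested as an interaction, passed for 126 genes (0.944% of those tested), 75 with a positive (0.562%) and 51 with a negative (0.382%) difference (Arid1a siRNAs minus control siRNA), and 1297 had an unadjusted p under 0.05. All 126 had passed in at least 1 of the 2 responses, 1 of them only with Arid1a siRNAs. Of 52 that rose with control siRNA, 45 rose less by the fitted value with Arid1a siRNAs, 1 rose more and 6 had the opposite sign, 3 of these passing. Of 73 that fell with control siRNA, 61 fell less, none fell more and 12 had the opposite sign, 4 of these passing. The number of genes depended on single libraries: it was 63 without siCtrl replicate 1, 55 and 65 without siCtrl_EGF replicates 1 and 3, 76 and 81 without siArid1a replicates 1 and 2, and 63 and 78 without siArid1a_EGF replicates 1 and 3. With the replicate number as a block it was 56, 53 of them with a smaller change under Arid1a siRNAs, counted by size whichever the sign. Counted in that way, the main fit had 119 of the 126 genes with a smaller change. The libraries with control siRNA enter both the control response and the interaction. A control change overestimated through scatter therefore favours both calls and a smaller change with Arid1a siRNAs. These counts describe the called genes and are not a further test. The share with a smaller change among all genes that responded with control siRNA was not counted. Same-numbered libraries of the 2 EGF groups deviated together (correlations of 0.14, 0.303 and 0.129), while those of the 2 groups with Arid1a siRNAs did not.

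**Figure D4:**
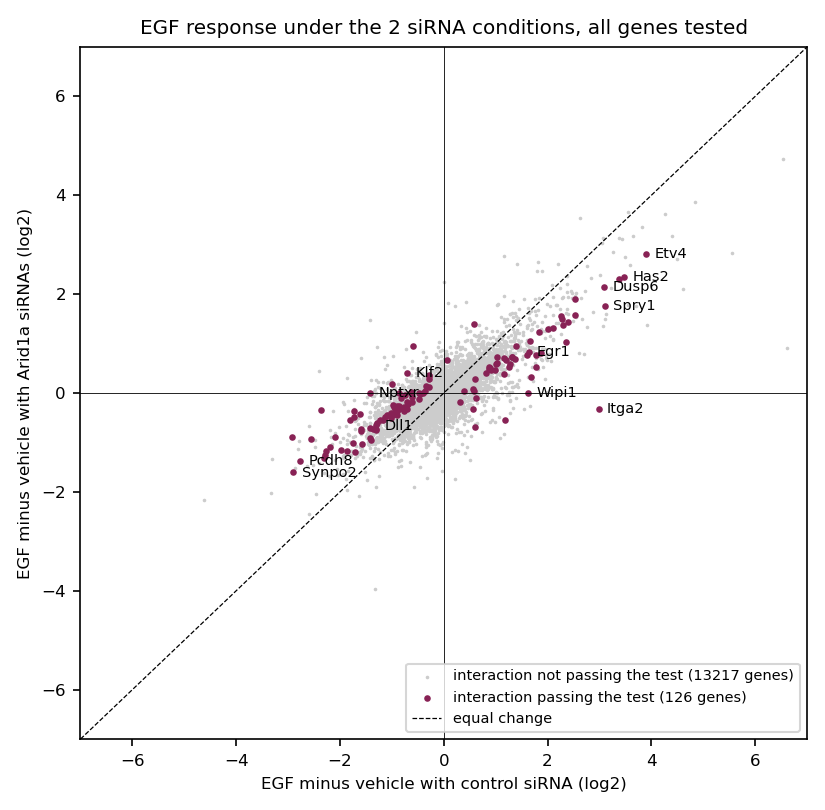
Log2 change with EGF with control siRNA (x axis) and with Arid1a siRNAs (y axis) for each of 13343 genes, with the 126 genes whose interaction passed in purple and a dashed line of equal change. Most purple points lie between that line and 0 on the y axis, and Wipi1, Nptxr and Itga2 lie near or past it.

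ERK feedback genes were among those with a smaller rise. The interaction passed for 7 of the 27 tested, all with a negative difference: Etv4, Dusp6, Spry1, Spry2, Errfi1, Etv5 and Phlda1. Over all genes tested it passed for 0.944%, and for 0.382% with a negative difference. Whether other genes that rose as strongly with control siRNA had a like share was not tested. With the replicate block the adjusted p was 0.0661 for Errfi1 and 0.0974 for Etv5. Spry1 stood at 9.71 and 8.88 CPM with control siRNA and at 78.2, 76.7 and 85.5 CPM with EGF added, against 10.6, 13.7 and 13.7 CPM and 43.1, 44.3 and 42.5 CPM with Arid1a siRNAs (difference -1.34 ± 0.14 SE, adjusted p = 0.000697). All 3 EGF libraries with Arid1a siRNAs were below all 3 with control siRNA. Dusp6 reached 145, 132 and 150 CPM with control siRNA and 82.2 to 86.9 CPM with Arid1a siRNAs (difference -0.94 ± 0.12 SE, adjusted p = 0.00149). Egr1 reached 101, 96.3 and 106 CPM with control siRNA and 59.1 to 65.8 CPM with Arid1a siRNAs (difference -0.80, adjusted p = 0.00187). Vehicle levels of Dusp6 and Egr1 did not differ between the siRNAs at this threshold (adjusted p = 0.12 and 0.24). For Dusp5 and Gprc5a the differences were -0.18 ± 0.18 SE and 0.07 ± 0.15 SE and did not pass (adjusted p = 0.86 and 0.96).

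Other genes reached a like level with EGF from a different start. Has2 stood at 4.91 and 5.37 CPM with control siRNA and vehicle but at 11.9 to 13.3 CPM with Arid1a siRNAs, and with EGF at 60.3, 48.2 and 62.2 CPM and at 58.3 to 66.2 CPM. Its EGF level did not differ between the siRNAs at this threshold (log2 difference 0.16, adjusted p = 0.18), while its vehicle level was higher by 1.27. Hbegf showed the same form, at 10.0 and 8.24 CPM against 17.2 to 19.6 CPM with vehicle, and 32.5, 35.4 and 32.7 CPM against 32.0 to 33.2 CPM with EGF. Of the 45 genes with a smaller rise, the EGF level was lower with Arid1a siRNAs for 36 and the vehicle level higher for 22, with 13 genes in both counts. Of the 61 with a smaller fall, the EGF level was higher with Arid1a siRNAs for 47 and the vehicle level lower for 27, with 13 in both. Over all genes tested, the EGF level was lower with Arid1a siRNAs for 23.2% and higher for 23.7%, and the vehicle level lower for 20.1% and higher for 18.8%. The interaction is the difference of these 2 quantities, so the counts describe the called genes and are not a further test.

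Falls were smaller too. Pcdh8 fell from 124 and 130 CPM to 16.1, 21.8 and 17.9 CPM with control siRNA, and only to 36.1 to 38.5 CPM from 91.7 to 104 CPM with Arid1a siRNAs (difference 1.39 ± 0.13 SE, adjusted p = 0.000194). Synpo2 reached 2.83, 2.47 and 1.77 CPM with control siRNA and 5.63 to 6.55 CPM with Arid1a siRNAs, from overlapping vehicle levels, and its interaction had an adjusted p of 0.0599 with the replicate block. Dll1, a Notch ligand gene, ended at 63.6, 63.8 and 60.5 CPM with control siRNA and 57.0 to 60.5 CPM with Arid1a siRNAs, but started from 151 and 158 CPM against 90.6 to 96.3 CPM.

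In a few genes the response was not detected with Arid1a siRNAs. Wipi1, an autophagy gene, rose from 18.4 and 23.6 CPM to 69.1, 57.4 and 67.5 CPM with control siRNA and stood at 13.4, 15.3 and 13.7 CPM and 15.3, 11.8 and 15.9 CPM with Arid1a siRNAs (log2 change 0.01 ± 0.14 SE, difference -1.62 ± 0.19 SE). Nptxr, a neuronal pentraxin receptor gene, fell by 1.42 on the log2 scale with control siRNA and stood at 14.2, 9.58 and 9.74 CPM and 11.1, 9.72 and 12.3 CPM with Arid1a siRNAs. Klf2, a transcription factor gene, fell by 0.70 with control siRNA and had a log2 change of 0.41 ± 0.16 SE with Arid1a siRNAs (adjusted p = 0.0874, all 3 EGF libraries higher). At 4-fold or more the interaction passed for 3 genes (0.0225%), named after their values were seen: Itga2 (-3.31), Cyp2s1 (2.03) and Nkx6-1 (2.03), all scarce. With the replicate block the adjusted p was 0.146 for the interaction of Klf2, 0.0704 for that of Cyp2s1 and 0.0509 for that of Nkx6-1. Itga2, an integrin subunit gene, stood at 0.101 and 0.143 CPM with control siRNA, at 1.30, 0.925 and 0.769 CPM with EGF added, and at 0.502 to 1.12 CPM in all 6 libraries with Arid1a siRNAs.

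**Figure D5:**
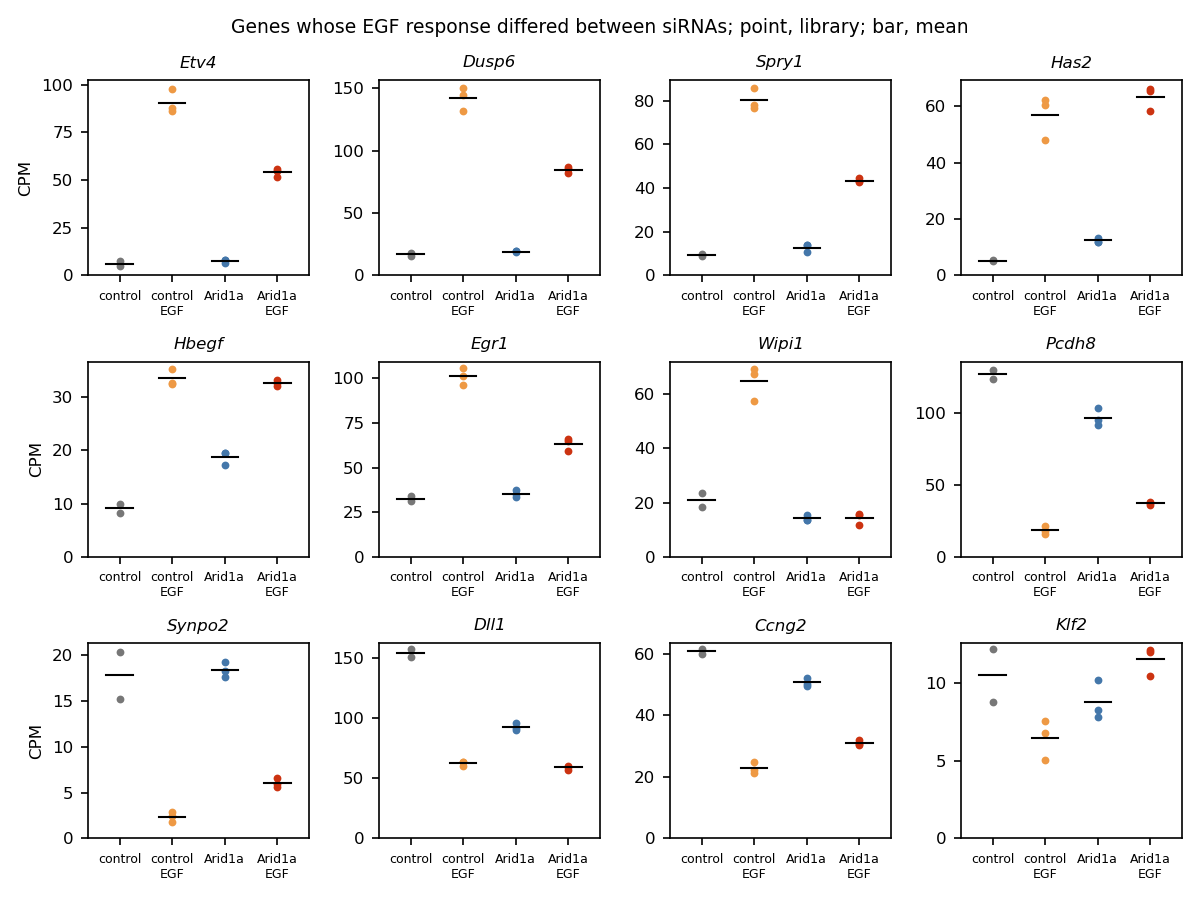
CPM in each library (points) and group mean (bars) of 12 genes whose EGF response differed between the siRNAs, in the 4 groups from left to right: control siRNA with vehicle (2 libraries) and EGF (3), and Arid1a siRNAs with vehicle (3) and EGF (3). The EGF levels of Etv4, Dusp6, Spry1 and Egr1 are lower with Arid1a siRNAs, those of Has2 and Hbegf are alike from a higher vehicle level, and Wipi1 stays near 15 CPM with Arid1a siRNAs.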

How the data were processed

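Polyadenylated RNA of 266-6 cells was sequenced with a kit that does not mark the strand, so antisense partners cannot be told apart. Per the submitters' processing notes, the authors used TopHat2 2.1.1, HTSeq 0.9.1, Cuffnorm 2.2.1.2, Cuffdiff 2.2.1.5 and build mm9. The deposited counts are raw reads per gene symbol. The authors' deposited FPKM values, from Cuffnorm by the notes, served as an alternative only, tested as log2(FPKM + 1) or log2(FPKM + 0.1), whose folds understate changes of low genes, and 3 of their control columns could not be matched and were not used. Annotation and counting settings are not given in the sources used here.

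From 23284 genes, filterByExpr (minimum count 10, minimum total 15) kept 13343 (57.3%, 99.96% of reads). edgeR 4.0.16 in R 4.3.3 fitted 4 group means over all 11 libraries (quasi-likelihood, robust, 7 residual degrees of freedom, biological coefficient of variation 7%) with TMM factors. Tests were two-sided, with Benjamini-Hochberg adjustment over all genes at 0.05. CPM use TMM-scaled library sizes, and the SE comes from the F statistic. The pipeline was run on simulated counts, drawn independently for each library, with far fewer changed genes than were called here. The simulation held no axis of variation within groups, so it does not bear on p-values where there is one. Alternatives were DESeq2 1.42.0, limma 3.58.1, other scalings, no filter, replicate blocks, left-out libraries and a within-group component as covariate.

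The members and lists were chosen with earlier results of these data known. Named genes are the 12 largest rises and falls (mean log2 CPM of at least 3, no overlap), up to 3 called members of each of 36 lists with the smallest p, a fixed set that includes Arid1a, Egfr and Ptf1a, and the 6 largest interactions each way. Members of counts of 5 or fewer, the other ERK feedback genes with an interaction, and interactions of at least 4-fold were named after their values were seen. A few genes that the rule names are not reported here. Replicates within the 2 groups differed beyond counting noise (chi-square per degree of freedom 1.57 to 9.04), so none was treated as a copy.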

Additional observations from a re-analysis of the deposited data

Results flagged for a closer look

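The named genes below stood out because the interaction term of the edgeR fit, the EGF response with Arid1a siRNAs minus that with control siRNA, had an adjusted p under 0.05. Each value is that difference on the log2 scale. Negative differences with a smaller rise under Arid1a siRNAs were those of Spry1 (-1.34), Daf2 (-1.31), Has2 (-1.12), Etv4 (-1.09), Col15a1 (-1.08), Hbegf (-1.06), Dusp6 (-0.94), Maff (-0.93), Egr1 (-0.80), Etv5 (-0.79), Phlda1 (-0.69), Spry2 (-0.69), Kcnj8 (-0.62), Errfi1 (-0.59) and Aen (-0.45). Positive differences with a smaller fall under Arid1a siRNAs were those of Cyp2s1 (2.03), Nkx6-1 (2.03), Pcdh8 (1.39), Synpo2 (1.29), Adrb1 (1.26), Omp (1.25), Olfml2b (1.09), Fam13a (1.04), Grhl3 (1.01), Pcdh15 (0.83), Ccng2 (0.71), Dll1 (0.64), Bcl2l11 (0.54) and Fgfr2 (0.53). The rise of Wipi1 (-1.62) and Itga2 (-3.31) and the fall of Nptxr (1.42) and Klf2 (1.11) with control siRNA had no counterpart that passed with Arid1a siRNAs. Among the ERK feedback genes in this set are Etv4, Etv5, Dusp6, Spry1, Spry2, Errfi1 and Phlda1.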

How the results depend on the processing

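No named gene whose change or interaction passed changed direction under any alternative run, while the medians of the YAP, Wnt, SWI/SNF, NFAT, matrix, islet, fibroblast and immune lists, all near 0, changed sign under at least 1. Of 135 named genes, 120 kept their side of the threshold for the EGF change under every alternative run. The exceptions were Ccne1, Actb, Smarcc2, Smarcd3, Chga, Ppy, Postn, Col3a1, Cd68, Egfr, Sox9, Bhlha15 and Omp, which lost the call under at least 1 setting, and Nr5a2 and Klf2, which gained it. Many named genes were chosen for a small p or a large change in these data, which favours a stable call. Of the 3119 genes called in the main fit, 2169 were also called without siArid1a_EGF replicate 1 and 2209 without siArid1a replicate 2. With the replicate block and only the 6 libraries with Arid1a siRNAs, 1904 of them were also called. Without the filter on low counts the adjusted p of Egfr was 0.0652 and that of Sox9 0.0658. Of 33 named interactions, 16 kept the call under every alternative, Spry1, Dusp6, Spry2, Hbegf, Egr1, Phlda1, Pcdh8, Olfml2b and Wipi1 among them, and 17 lost it under at least 1 setting. Etv4, Has2 and Col15a1 lost it without siCtrl replicate 1 (adjusted p = 0.0717, 0.0708 and 0.091).

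The number of genes changed by EGF was 3123 with DESeq2's scaling factors, 3192 with upper-quartile factors, 2979 without a filter, 2840 with DESeq2, 3074 with limma-voom and 2217 to 3399 with 1 library left out (1295 to 1840 higher, 911 to 1602 lower, 261 to 301 at least 2-fold). Upper-quartile factors gave 1509 higher and 1683 lower genes, so the excess of higher genes depends on the scaling. On the FPKM values, 71 genes changed at least 2-fold with a pseudocount of 1, 179 with 0.1 and 72 with 1 and no minimum, since the pseudocount shrinks folds. With a covariate for the axis of variation within groups, chosen after seeing the data, 5212 genes passed (2737 higher, 2475 lower), and the interaction passed for 801, 729 of them with a smaller change in knockdown. That axis was computed from the deviations of these same counts from their group means. Adding it takes spread out of the fit by construction, so the larger counts are no independent check. A smaller change is counted here and below by size, whichever the sign (119 of 126 in the main fit). The interaction passed for 178 genes with DESeq2, 113 with limma-voom and 55 to 153 with 1 library left out, 54 to 146 of them with a smaller change in knockdown. Depth limits the scarce genes Il1rn, S100a4 and Itga2.

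Replicate numbers did not pair the vehicle and EGF libraries with Arid1a siRNAs: deviations of same-numbered siArid1a and siArid1a_EGF libraries correlated at 0.044, -0.302 and -0.111, and siArid1a replicates 2 and 3 correlated best with EGF replicates 1 and 2 (0.212 and 0.279). Same-numbered siCtrl_EGF and siArid1a_EGF libraries correlated at 0.14, 0.303 and 0.129, each above every differently numbered pair of these groups (at most 0.065). A replicate block over all libraries gave 2616 genes changed by EGF, an interaction for 56, and 53 with a smaller change in knockdown, and the interactions of Kcnj8, Synpo2, Fgfr2, Maff, Errfi1, Bcl2l11, Aen, Omp, Klf2, Cyp2s1, Etv5 and Nkx6-1 no longer passed. With the block and only the 6 libraries, 1932 passed, 1113 higher and 819 lower.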
